A study of Aspergillus nidulans with 48 samples.

Results

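AN0447 and AN2508 are 2 of the 10988 genes in the deposited expression table of *Aspergillus nidulans*, and both belong to a list of 19 genes for the assembly of iron-sulfur (Fe-S) clusters. AN0447 is annotated, from its domains, as an iron- and cluster-binding protein with a predicted role in that assembly. AN2508 is annotated through its orthologs as a cysteine desulfurase. Both were chosen by their fold changes in Δ*atfA* against the control, which were known beforehand, AN0447 because it was higher in Δ*atfA* mycelia and lower in Δ*atfA* conidia. For this reason the Δ*atfA* against control differences are given below as descriptions without a test.

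Fe-S clusters are inorganic cofactors of respiratory chain proteins, aconitase, DNA repair enzymes and many others. In *Saccharomyces cerevisiae*, a cysteine desulfurase (Nfs1) frees sulfur from cysteine, frataxin takes part in this step, and the cluster is first built on a scaffold protein. Chaperones, a glutaredoxin and later carriers then bring the cluster to mitochondrial proteins, while a separate machinery matures cytosolic and nuclear ones. Exposed clusters are damaged by superoxide, which menadione generates inside cells. AtfA and AtfB are bZIP-type transcription factors with roles in stress tolerance and in asexual spores (conidia).

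RNA was sequenced from surface cultures grown on Barratt's agar at 37 °C, either untreated or with menadione sodium bisulfite (MSB), a dose that the labels write as 0.04 Mm and that is read here as mM. The strains were the control, Δ*atfA*, Δ*atfB* and a mutant lacking both genes, termed the double mutant, whose genotype label repeats *atfB* while its titles name both. Mycelia were taken before conidiophores appeared, and conidia were washed off, centrifuged and filtered. The labels give no culture age. The study states that age and RNA isolation efficiency differed between mycelia and conidia, and for this reason did not compare their transcriptomes. Each combination of cell type, strain and treatment had 3 biological replicates by the series description, which gives 16 groups and 48 libraries. Conidial replicates 1 and 2 were of the first batch and replicate 3 of the second, and all mycelia were of 1 further batch. Cell type, culture age and batch cannot be told apart.

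Libraries held 12974631 to 36314359 counts in mycelia and 8426329 to 24958904 in conidia. The deleted genes were read first. In untreated conidia *atfA* (AN2911) stood at 511 ± 70.2 RPKM in the control, 40.5 ± 23.7 in Δ*atfA* and 15.9 ± 5.35 in the double mutant (SD, n = 3 each; RPKM are reads scaled to gene length and to the total of the library). *atfB* (AN8643) stood at 307 ± 54.8 RPKM in control conidia, 257 ± 50.9 in the conidia labelled Δ*atfB* and 2.25 ± 0.379 in the double mutant. The conidial reads thus went against the Δ*atfB* label, and these samples are called the libraries labelled Δ*atfB*. In mycelia *atfB* was low in every strain, at 3.28 ± 0.481 RPKM in the untreated control and 0.771 ± 0.0981 in Δ*atfB*. Markers of the cell types were also read. The 5 conidial markers *conJ*, *catA*, *rodA*, *wA* and *wetA* summed to 16704 to 18680 RPKM per untreated control conidial library and to 73.8 to 206 per untreated control mycelial library.

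Both genes were abundant. In untreated control mycelia AN0447 averaged 75.5 RPKM and AN2508 82.6 RPKM, above 86.9% and 88.1% of the genes in the table. In untreated control conidia they averaged 315 and 281 RPKM, above 96.3% and 95.9% of the genes. At least 1541 reads of AN0447 and 2223 of AN2508 were counted in every library, so the spread between replicates and not the number of reads set the precision. The neighbouring gene models, AN0448 and AN0446 for AN0447 and AN2507 and AN2509 for AN2508, do not overlap them in the RefSeq annotation of assembly ASM1142v1.

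The level of AN0447 across the 16 groups, as mean deposited RPKM, ran from 59.9 ± 1.07 in untreated Δ*atfB* mycelia to 315 ± 20 in untreated control conidia. The 4 highest groups were the conidia of the control and of the libraries labelled Δ*atfB*, with and without MSB, and each of them overlapped its neighbour in the order. The mycelia of both strains without *atfA* came next, with 223 ± 14.9 RPKM in MSB-treated Δ*atfA*, 200 ± 7.9 in the MSB-treated double mutant, 166 ± 15.4 in untreated Δ*atfA* and 157 ± 7.75 in the untreated double mutant. The conidia of these strains followed at 128 to 153 RPKM, and the mycelia of the control and Δ*atfB* formed the lowest 4 groups. Of the 15 pairs of neighbours in this order, 9 had overlapping libraries.

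AN2508 ran from 82.6 ± 7.39 RPKM in untreated control mycelia to 369 ± 49.8 in the untreated conidia labelled Δ*atfB*. Its 4 highest groups were the same kinds of sample as for AN0447, and the lowest of them, MSB-treated control conidia at 266 ± 27.8 RPKM, did not overlap the next, untreated Δ*atfA* conidia at 164 ± 35. Below this gap the groups lay close together, and 13 of the 15 neighbouring pairs overlapped.

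**Figure D1:**
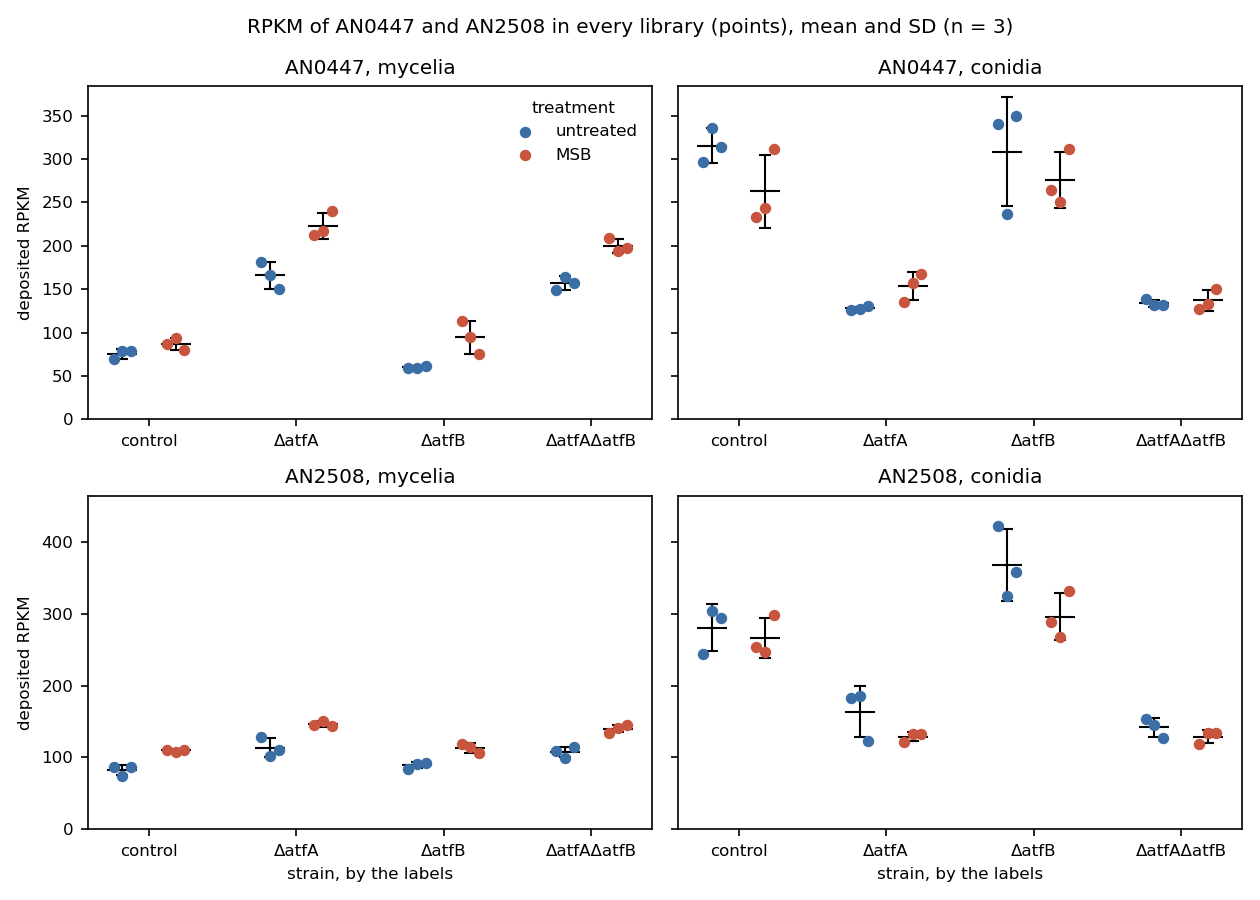
Deposited RPKM (vertical axis, linear from 0) of AN0447 (top) and AN2508 (bottom) in mycelia (left) and conidia (right) of the 4 strains, with 1 point per library, untreated in blue and MSB-treated in red, and the mean and SD of 3 libraries in black. AN0447 lay at 149 RPKM or above in all 12 mycelial libraries without *atfA* and at 112.99 or below in the other 12, while in conidia the order was turned, with at most 168 RPKM in the 12 libraries without *atfA* and at least 233 in the other 12.

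The difference on which AN0447 was picked is described first. Untreated control mycelia held 69.1, 78.9 and 78.5 RPKM, and untreated Δ*atfA* mycelia 181, 166 and 150. Untreated control conidia held 296, 336 and 314 RPKM, and untreated Δ*atfA* conidia 126, 127 and 130. The groups did not overlap in either cell type. The fitted log2 fold change of Δ*atfA* against control was 1.17 (SE 0.11) in mycelia and −2.11 (SE 0.16) in conidia untreated, and 1.36 (SE 0.11) and −1.44 (SE 0.15) on MSB. In these comparisons 12.4% and 38.8% of the genes tested were called untreated and 8.82% and 27.9% on MSB, in mycelia and conidia respectively, by the thresholds explained next.

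The loss of *atfA* was also sampled by a comparison that the choice did not use, that of the double mutant against Δ*atfB*. Earlier results of these data were known, however, and the study's AtfA-dependent gene sets were defined partly by this comparison. The p values below are therefore not independent of what was known. Fold changes came from edgeR's quasi-likelihood fit of all 24 libraries of a cell type, scaled by relative log expression (RLE) factors, and a call required a log2 fold change beyond 1 in size together with a p, adjusted after Benjamini and Hochberg, under 0.05. In untreated mycelia AN0447 held 59.4, 59.1 and 61.1 RPKM in Δ*atfB* and 149, 165 and 157 in the double mutant. Every double-mutant library was above every Δ*atfB* library. AN0447 was 2.79-fold higher in the double mutant, with a log2 fold change of 1.48 (SE 0.11, edgeR adjusted p = 6.94e-09). It was 1 of the 3.55% of genes called higher there, beside 7.44% called lower.

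On MSB, the mycelial levels of AN0447 were 112.99, 94.94 and 75.56 RPKM in Δ*atfB* and 209, 194 and 197 in the double mutant. These groups did not overlap either, although the Δ*atfB* libraries were more spread than in untreated mycelia. The log2 fold change was 1.11 (SE 0.11, edgeR adjusted p = 2.08e-07), in a comparison with 3.11% of genes called higher and 7.06% called lower. Without Δ*atfB* replicate 3, the lowest of its group, the log2 fold change was 0.97 (edgeR adjusted p = 7.19e-07), below the fold threshold. The conidiophore regulator *brlA* (AN0973) was lower in the double mutant than in Δ*atfB* mycelia, by log2 fold changes of −1.67 untreated and −3.85 on MSB (edgeR adjusted p = 5.10e-04 and 8.95e-07). The 5 conidial markers summed to 90.6 to 747 RPKM in untreated Δ*atfB* mycelia and to 24.1 to 60.5 in the untreated double mutant. None was at 0 in any library, 3 of the 5 were called lower untreated and 2 on MSB, and their part in the AN0447 difference was not tested.

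In conidia the same comparison went the other way. Untreated libraries labelled Δ*atfB* held 340, 236 and 349 RPKM of AN0447, and the double mutant 138, 131 and 131. The lowest of the first group was well above the highest of the second. AN0447 was 3.3-fold lower in the double mutant, with a log2 fold change of −1.72 (SE 0.16, edgeR adjusted p = 2.34e-08), where 16.9% of genes were called lower and 13% higher. On MSB the levels were 264, 250 and 312 RPKM against 127, 133 and 151. The groups stayed apart, with a log2 fold change of −1.42 (SE 0.15, edgeR adjusted p = 3.86e-07), beside 12.8% of genes called lower and 11.2% higher. Because the libraries labelled Δ*atfB* kept *atfB* reads in conidia, the groups there differed in *atfB* RNA as well as in *atfA* RNA.

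The difference between the cell types was tested in 1 fit of all 48 libraries. The strains set against each other were the double mutant and that labelled Δ*atfB*, which kept *atfB* reads in conidia, so that the conidial arm spanned a difference in *atfB* RNA that the mycelial arm did not. The log2 fold change of AN0447 was lower in conidia than in mycelia, with a conidial minus mycelial difference of −3.13 untreated (SE 0.19, edgeR adjusted p = 9.93e-16) and −2.52 on MSB (SE 0.19, edgeR adjusted p = 2.57e-13). This difference was common in the table, with 33.4% of the 10264 genes called untreated and 28.6% on MSB. Genes called higher in mycelia and lower in conidia were fewer. They made up 1.13% of the 9091 genes tested in both cell types untreated and 0.649% on MSB. AN0447 was among them, but it was picked for opposite directions in Δ*atfA*, so its place there is no separate result. As a ratio of mean RPKM, conidia of the control held 4.18 times the AN0447 level of its mycelia untreated, and conidia of the double mutant 0.852 times.

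AN2508, the predicted cysteine desulfurase, shared the conidial direction but moved little in mycelia. Its levels in untreated control and Δ*atfA* mycelia were 86.8, 74 and 86.8 against 128.11, 101.86 and 109.96 RPKM, a described log2 fold change of 0.49 (SE 0.09), and 0.41 (SE 0.09) on MSB. In conidia the control held 244, 305 and 295 RPKM and Δ*atfA* 183, 185 and 124, a described log2 fold change of −1.58 (SE 0.18), and −1.72 (SE 0.18) on MSB. Control and Δ*atfA* libraries did not overlap in either cell type. The third Δ*atfA* conidial library, of the second batch, was the lowest of its group.

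In the comparison that the choice did not use, untreated AN2508 stood at 84.3, 90.9 and 92 RPKM in Δ*atfB* mycelia. It stood at 109.05, 99.77 and 114.18 in the double mutant. The groups lay close but did not overlap. The log2 fold change was 0.36 (SE 0.09, edgeR adjusted p = 0.00245), past the p threshold and well below the fold threshold. On MSB the levels were 118.95, 113.87 and 105.91 against 135, 141 and 145 RPKM, with a log2 fold change of 0.34 (SE 0.09, edgeR adjusted p = 0.00428). AN2508 thus rose in double-mutant mycelia by less than the fold that defined a call, 1.28-fold untreated and 1.26-fold on MSB.

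In conidia untreated AN2508 stood at 423, 325 and 359 RPKM in the libraries labelled Δ*atfB* and at 154, 145 and 127 in the double mutant. The double-mutant libraries were all below the others. AN2508 fell 3.72-fold, with a log2 fold change of −1.90 (SE 0.18, edgeR adjusted p = 3.97e-08). On MSB the levels were 290, 268 and 332 against 119, 134 and 135 RPKM, with a log2 fold change of −1.62 (SE 0.18, edgeR adjusted p = 4.08e-07). The conidial minus mycelial difference in log2 fold change was −2.185 untreated (SE 0.19, edgeR adjusted p = 1.03e-11) and −1.94 on MSB (SE 0.19, edgeR adjusted p = 2.00e-10).

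The conidial sizes depended on the scaling. RLE factors of conidial libraries averaged, untreated, 0.704 for the control, 0.903 for samples labelled Δ*atfB*, 1.23 for Δ*atfA* and 1.27 for the double mutant, whereas all mycelial factors lay between 0.965 and 1.05. In deposited RPKM, which carry no such factor, untreated AN0447 was 2.31-fold and AN2508 2.6-fold lower in double-mutant conidia than in those labelled Δ*atfB*, against 3.3-fold and 3.72-fold after scaling. Fitted without a factor, the median log2 fold change of all conidial genes moved from 0.06 to 0.56 untreated and from 0.08 to 0.50 on MSB, and AN0447 stood at −1.20 and −1.01. Relative to that median AN0447 stood at −1.75 untreated without a factor and at −1.78 with it. Over all conidial genes the untreated calls moved from 1323 higher and 1712 lower with the factors to 2738 higher and 1112 lower without, and on MSB from 1136 and 1299 to 2312 and 927. AN0447 and AN2508 stayed lower in double-mutant conidia, and past both thresholds, with RLE, TMM or no factor in both treatments. Within the first conidial batch alone the log2 fold changes were −1.61 and −1.37 for AN0447 and −1.83 and −1.53 for AN2508, untreated and on MSB (edgeR adjusted p at most 9.66e-05).

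Conidial markers moved with the same comparison. *conJ*, *catA*, *wA* and *wetA* were lower in untreated double-mutant conidia than in those labelled Δ*atfB*, and *rodA*, which encodes the rodlet hydrophobin of the spore wall, was higher. Without *rodA* the marker sum was 10743 to 16164 RPKM per untreated library labelled Δ*atfB* and 155 to 182 per untreated double-mutant library. With *rodA* the sums were 15512 to 20511 and 13862 to 16153 RPKM. On MSB 3 of the 5 markers were called lower and none higher. No marker was at 0 in any library, and *catB* (AN9339), the hyphal catalase, stood untreated at 43.8 to 57.5 RPKM against 80.7 to 85, with a scaled log2 fold change of 0.29 that missed the threshold (edgeR adjusted p = 0.281). On MSB it stood at 51.7 to 106.7 against 95.2 to 155.7 RPKM (log2 fold change 0.34, edgeR adjusted p = 0.218). Untreated *brlA*, as RPKM, was 77.15 to 112.8 in the libraries labelled Δ*atfB* and higher in the double mutant, at 199.6 to 248.8. On MSB these were 97.65 to 275.2 and 279.1 to 414. The study lists *catA* as AtfA-dependent in mycelia and conidia, with and without MSB. The part of these marker differences in those of AN0447 and AN2508 was not tested. In bulk RNA, fewer cells of a kind and less RNA per cell cannot be told apart.

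The control libraries entered the choice of both genes, so the double mutant against the control is given as a description without a test. AN0447 differed by log2 fold changes of 1.12 untreated and 1.20 on MSB in mycelia and of −2.09 and −1.63 in conidia. AN2508 differed by 0.45 and 0.34 in mycelia and by −1.84 and −1.74 in conidia. Genes called in these comparisons made up 7% and 4.72% in mycelia and 35.5% and 30.0% in conidia, untreated and on MSB. Without scaling factors the conidial values were −0.94 for AN0447 on MSB and −0.99 for AN2508 untreated.

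Neither gene was called between the double mutant and Δ*atfA*, libraries that also entered the choice on the Δ*atfA* side. Log2 fold changes of double mutant against Δ*atfA* ran from −0.26 (AN2508, untreated conidia) to 0.02 (AN0447, untreated conidia), with edgeR adjusted p of 0.291 or more and SEs of 0.09 to 0.17. AN0447 libraries nevertheless lay apart on MSB in mycelia, at 212 to 239.8 RPKM in Δ*atfA* and 193.8 to 208.9 in the double mutant, also after scaling. AN2508 libraries there overlapped as RPKM but lay apart after scaling, at 147.6 to 151.7 in Δ*atfA* and 137.7 to 143.8 in the double mutant. In untreated conidia AN0447 libraries lay apart as RPKM, at 126.4 to 130.1 in Δ*atfA* and 131.4 to 138.2 in the double mutant, but overlapped after scaling. Called genes made up 6.73% untreated and 2.66% on MSB in mycelia, and 11.5% and 1.11% in conidia. Nor was either gene called between the control and Δ*atfB* mycelia or the conidial libraries labelled Δ*atfB*, of which the latter kept *atfB* reads and so give no measure of *atfB* loss. In these comparisons called genes made up 4.22% and 3.05% in mycelia and 4.48% and 1.97% in conidia. The control libraries entered the choice of both genes, which the p values of these comparisons do not allow for. The single value past the p threshold there was AN0447 in untreated mycelia, which was 1.28-fold lower in Δ*atfB* (log2 fold change −0.36, SE 0.11, edgeR adjusted p = 0.0201). It missed the p threshold when control replicate 2 or 3 or Δ*atfB* replicate 1 or 2 was left out (edgeR adjusted p up to 0.0764). On MSB its value in mycelia was 0.09 (SE 0.11, edgeR adjusted p = 0.612), and whether these differ was not tested.

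**Figure D2:**
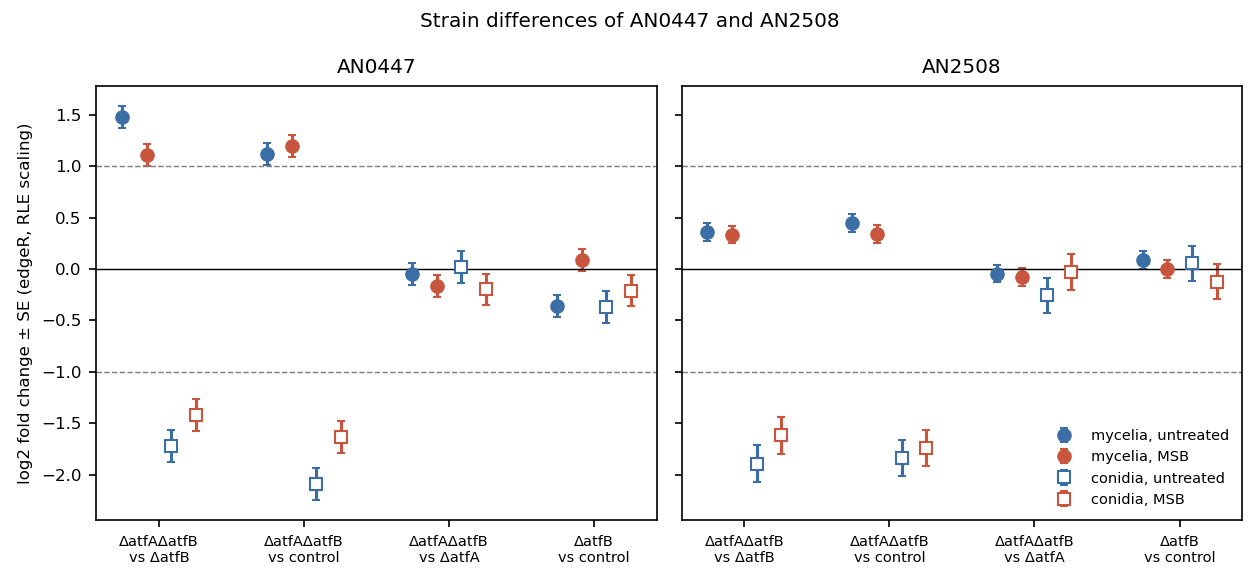
Log2 fold changes with SE (vertical axis) of AN0447 (left) and AN2508 (right) for 4 strain comparisons, with filled circles for mycelia, open squares for conidia, blue for untreated and red for MSB-treated cultures, and dashed lines at the fold threshold of 1 either way. AN0447 lies above 1 in mycelia and below −1 in conidia wherever the double mutant is set against Δ*atfB* or the control, while AN2508 stays between 0.34 and 0.45 in mycelia and goes to between −1.90 and −1.62 in conidia.

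On MSB both genes stood higher in mycelia, by less than the fold threshold, and no conidial value passed the p threshold. Control mycelia held 86.8, 93.3 and 79.5 RPKM of AN0447 on MSB, overlapping none of the untreated libraries but lying close to them, with a log2 fold change of 0.25 (SE 0.11, edgeR adjusted p = 0.0661). In the mutants AN0447 rose on MSB by log2 fold changes of 0.44 in Δ*atfA*, 0.70 in Δ*atfB* and 0.33 in the double mutant (edgeR adjusted p = 0.00159, 3.16e-05 and 0.019). The double-mutant value missed the p threshold without its untreated replicate 1 or its MSB-treated replicate 1 (edgeR adjusted p = 0.0789 and 0.0659). AN2508 rose in all 4 strains, by 0.46 in the control, 0.39 in Δ*atfA*, 0.38 in Δ*atfB* and 0.36 in the double mutant (edgeR adjusted p = 2.01e-04 to 0.00243). The control and Δ*atfA* libraries entered the choice of both genes, which their MSB p values, here and in conidia, do not allow for. Markers moved with MSB in mycelia. In the control *brlA* went from 15.1 to 2.47 RPKM, *rodA* from 110.5 to 15.7 and *catB* from 205.5 to 1232, as means. The 5 conidial markers summed to 8.07 to 35.2 RPKM in MSB-treated control mycelia, 2 of the 5 were called lower in the control and 1 in each mutant, and none was at 0. Their part in the MSB differences of AN0447 and AN2508 was not tested. MSB-treated control mycelia held 110.09, 108.03 and 110.97 RPKM of AN2508, above all 3 untreated libraries. None of these changes reached the fold threshold, which 14%, 17.5%, 13.7% and 12.7% of mycelial genes did in the control, Δ*atfA*, Δ*atfB* and the double mutant.

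In conidia the MSB log2 fold changes lay between −0.37 and 0.30 for AN0447 and between −0.35 and −0.08 for AN2508 (SE 0.15 to 0.17, edgeR adjusted p at least 0.0679). MSB-treated control conidia held 233, 244 and 311 RPKM of AN0447 and 254, 247 and 298 of AN2508. As RPKM they overlapped the untreated ones for both genes, but AN0447 after RLE scaling did not, at 434 to 467.8 untreated and 315.7 to 404.6 on MSB. In Δ*atfA* conidia AN0447 lay apart as well, at 126.4 to 130.1 RPKM untreated and 135.3 to 167.6 on MSB. Some alternatives passed the p threshold. These were AN0447 in the control with TMM factors (−0.39, edgeR adjusted p = 0.0497) and in the libraries labelled Δ*atfB* without untreated replicate 2 (−0.42, edgeR adjusted p = 0.026). AN2508 in Δ*atfA* passed without untreated replicate 3 (−0.50, edgeR adjusted p = 0.0309) and in the first batch alone (−0.48, edgeR adjusted p = 0.0447). In the same order of strains, 14.6%, 15.1%, 4.27% and 1.24% of conidial genes were called for MSB. Whether the MSB effect differs between strains or cell types was not tested.

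All 19 genes of the Fe-S assembly list passed the filter on low values in both cell types. Between the double mutant and Δ*atfB* in untreated mycelia, 2 of the 19 were called higher (AN0447 and AN10237) and none lower, where 3.55% of all genes were called higher. At any fold 10 passed the p threshold upward and none downward, where 20.2% of all genes passed upward and 20.8% downward. The median log2 fold change of the list was 0.36, beside 0.01 over all genes tested. In untreated conidia 7 of the 19 were called lower and none higher, where 16.9% of all genes were called lower and 13% higher. At any fold 13 passed downward and none upward, where 28.1% of all genes passed downward and 25.6% upward, and the median was −0.80 beside 0.06 over all genes. On MSB 1 was called higher in mycelia, where 3.11% of all genes were, and 6 were called lower in conidia, where 12.8% were. The MSB medians were 0.15 in mycelia and −0.57 in conidia, beside 0.01 and 0.08 over all genes. At any fold on MSB 6 passed upward and 2 downward in mycelia, where 20.5% and 21.8% of all genes did, and 13 passed downward and none upward in conidia, where 23.6% and 22.3% did. The study reports iron-sulfur assembly genes as enriched among its AtfA-dependent genes of conidia, which it defined partly by this comparison. The conidial counts are thus no separate result. Both described genes, chosen for their *atfA* differences, are in these counts. Leaving them out, the medians of the remaining 17 were 0.29 in mycelia and −0.65 in conidia untreated, and 0.145 and −0.557 on MSB. Of these 17, 1 was called higher in mycelia untreated and 0 on MSB. In conidia 5 were called lower untreated and 4 on MSB. Without scaling factors 4 of the 19 were called lower in untreated conidia, where 1112 of 10143 genes were, and 2 on MSB, where 927 were. AN0447 and AN2508 were among them in both treatments, and on MSB they were the 2. The counts at any fold, here and below, were taken with the factors and are not given without them.

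Within the sulfur step, the other desulfurase, AN10584, an ortholog of the mitochondrial enzyme, moved less than AN2508. It was lower in untreated double-mutant conidia by a log2 fold change of −0.65 and higher in mycelia by 0.21, both past the p threshold and short of the fold. As RPKM, without a scaling factor, its conidial groups overlapped, at 94.89 to 113.5 in the double mutant and 103.1 to 125.4 under the Δ*atfB* label. Its level was 101.6 ± 8.85 RPKM in untreated control conidia and 150 ± 18.2 in mycelia, so it was not the higher in conidia as AN2508 was. AN1986, a frataxin-like iron chaperone, fell by −1.79 in untreated conidia and rose by 0.53 in mycelia, and AN4655, the scaffold and the most abundant of the list in control conidia at 973 RPKM, fell by −1.46 and rose by 0.36. AN12201, for electron supply, gave −0.22 and 0.05 and passed no threshold in either cell type.

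Among the later carriers, AN10237 was the other gene called in both directions, at 1.02 in untreated mycelia and −1.18 in untreated conidia. Its mycelial call rested on a value just past the fold threshold and was lost without Δ*atfB* replicate 1, double-mutant replicate 2 or double-mutant replicate 3, each time leaving 1 gene of the list called higher. AN10012 gave 0.72 and −1.56, and AN5953 gave 0.22 and −1.16, called in conidia alone. AN11837 gave 0.15 and 0.30 and passed no threshold. The chaperone AN1469 rose by 0.41 in mycelia and gave −0.02 in conidia, the glutaredoxin AN4304 gave 0.15 and 0.20, and AN4297, for delivery to the respiratory NADH dehydrogenase, gave 0.09 and 0.16.

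The cytosolic branch had no call in this comparison, which for so few genes is near the shares over all genes. Untreated, those shares were 3.55% higher and 7.44% lower in mycelia and 13% higher and 16.9% lower in conidia. In untreated conidia AN11060, AN3632, AN8485, AN2155 and AN1407 gave −0.94, −0.83, −0.80, −0.65 and −0.59, each past the p threshold but not the fold, and AN1385 gave 0.42 without passing. These conidial sizes were fitted with the scaling factors. As mean RPKM, from AN11060 to AN1407, the double mutant held 30.34, 18.3, 75.27, 42.13 and 22.13. Under the Δ*atfB* label the means were 40.35, 22.78, 92.64, 46.46 and 23.69. As RPKM the groups overlapped for AN11060, AN2155 and AN1407 and lay apart for AN3632 and AN8485. In untreated mycelia AN11060 and AN8485 rose by 0.44 and 0.29 and the other 4 passed no threshold, at −0.19 to 0.40. Of the 19 genes, 9 passed the p threshold upward in mycelia and downward in conidia untreated, and 6 did on MSB, where 8.37% and 6.42% of all genes tested in both did. In the test of the difference between cell types 10 of the 19 were called untreated and 7 on MSB, all lower in conidia, where 15.8% and 13.9% of all genes were called lower. Without AN0447 and AN2508, 7 of the other 17 passed the p threshold in both directions untreated and 4 on MSB. In the test of the difference 8 and 5 of these 17 were called lower. AN0447, picked for opposite directions in the cell types, had the lowest value of the list in both treatments.

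**Figure D3:**
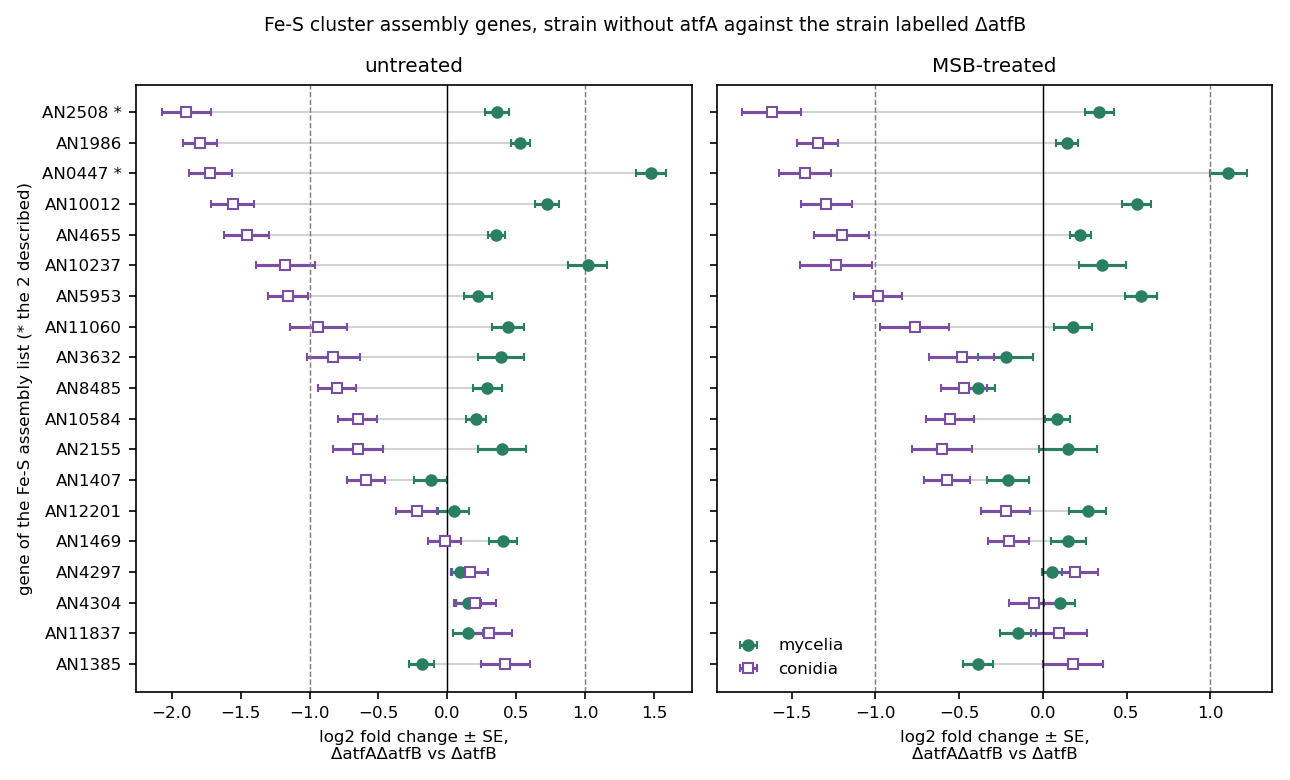
Log2 fold changes with SE (horizontal axis) of the double mutant against the strain labelled Δ*atfB* for the 19 Fe-S assembly genes (vertical axis, ordered by the untreated conidial value), untreated on the left and MSB-treated on the right, with green circles for mycelia, purple squares for conidia and grey lines joining the values of a gene. AN0447, picked for opposite directions in Δ*atfA*, spans the widest gap, from 1.48 in mycelia to −1.72 in conidia untreated. Most genes in the upper part lie right of 0 in mycelia and left of it in conidia.

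The genes listed for enzymes with Fe-S clusters did not move as 1 group. Which subunits of these enzymes carry a cluster is not told apart here. In untreated double-mutant conidia the aconitase AN5525 (*acoA*) was lower than in those labelled Δ*atfB* by a log2 fold change of −1.53, and AN3894, also annotated as an aconitase, was higher by 1.99 (edgeR adjusted p = 3.78e-06 and 0.00138). AN3894 was low and uneven in the libraries labelled Δ*atfB*, at 2.118 to 8.898 RPKM, against 17.2 to 23.69. On MSB its groups overlapped, at 6.291 to 20.55 and 15.18 to 40.07 RPKM, while *acoA* stood at 1235 to 1399 and 491.1 to 588.1. Of the succinate dehydrogenase genes AN1543 was higher by 1.46 untreated and 1.05 on MSB, and AN2332 and AN8793 were lower on MSB by −1.04 and −1.14. The glutaredoxins AN4215 and AN7567 were lower, by −1.16 and −1.18 untreated and by −1.15 and −1.14 on MSB. None of the 9 enzyme genes and 4 glutaredoxins was called in mycelia in this comparison, which for so few genes is near the shares over all genes. In mycelia those shares were 3.55% higher and 7.44% lower untreated, and 3.11% and 7.06% on MSB. In conidia 13% of all genes were called higher and 16.9% lower untreated, and 11.2% and 12.8% on MSB.

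The genes whose pattern was most like that of each member were taken by Pearson's r over the 16 group means of log2(RLE-scaled RPKM + 0.1), among the 9091 genes that passed the filter in both cell types. The groups share the strains' libraries, depths and batches, so r is a description. For AN0447 they were AN11072 (r = 0.977), annotated by its orthologs as a diacylglycerol acyltransferase, AN10771 (0.97), with a predicted RNA-binding domain, AN8200 (0.97), AN10034 (0.97), annotated through orthologs as a nuclear import receptor, and AN1527 (0.968). The level of AN10034, for instance, was 6.26 RPKM in control and 26.2 in Δ*atfA* mycelia untreated, and 94.3 and 20.1 in conidia. All 5 were higher in Δ*atfA* than in control mycelia and lower in Δ*atfA* than in control conidia, as mean untreated RPKM. These groups also entered r, so the shared direction follows from the choice.

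For AN2508 the closest were AN1778 (r = 0.991), a putative ketopantoate hydroxymethyltransferase of coenzyme A synthesis, AN6032 (0.984), a putative enzyme of folate synthesis, AN1734 (0.983), AN4057 (0.982), with a predicted protein phosphatase domain, and AN5323 (0.981), a predicted transporter. Chosen by r over these groups, they shared high levels in control conidia and low ones in Δ*atfA* conidia and all mycelia. AN1734, for instance, held 96.1 RPKM in untreated control conidia, 2.45 in Δ*atfA* conidia and 1.31 in control mycelia. AN0447 and AN2508 had an r of 0.907 with each other, which placed AN2508 in position 66 for AN0447 and AN0447 in position 316 for AN2508. Of the assembly list AN10012 was closest to AN0447 (0.941, position 16) and AN4655 to AN2508 (0.941, position 125).

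**Figure D4:**
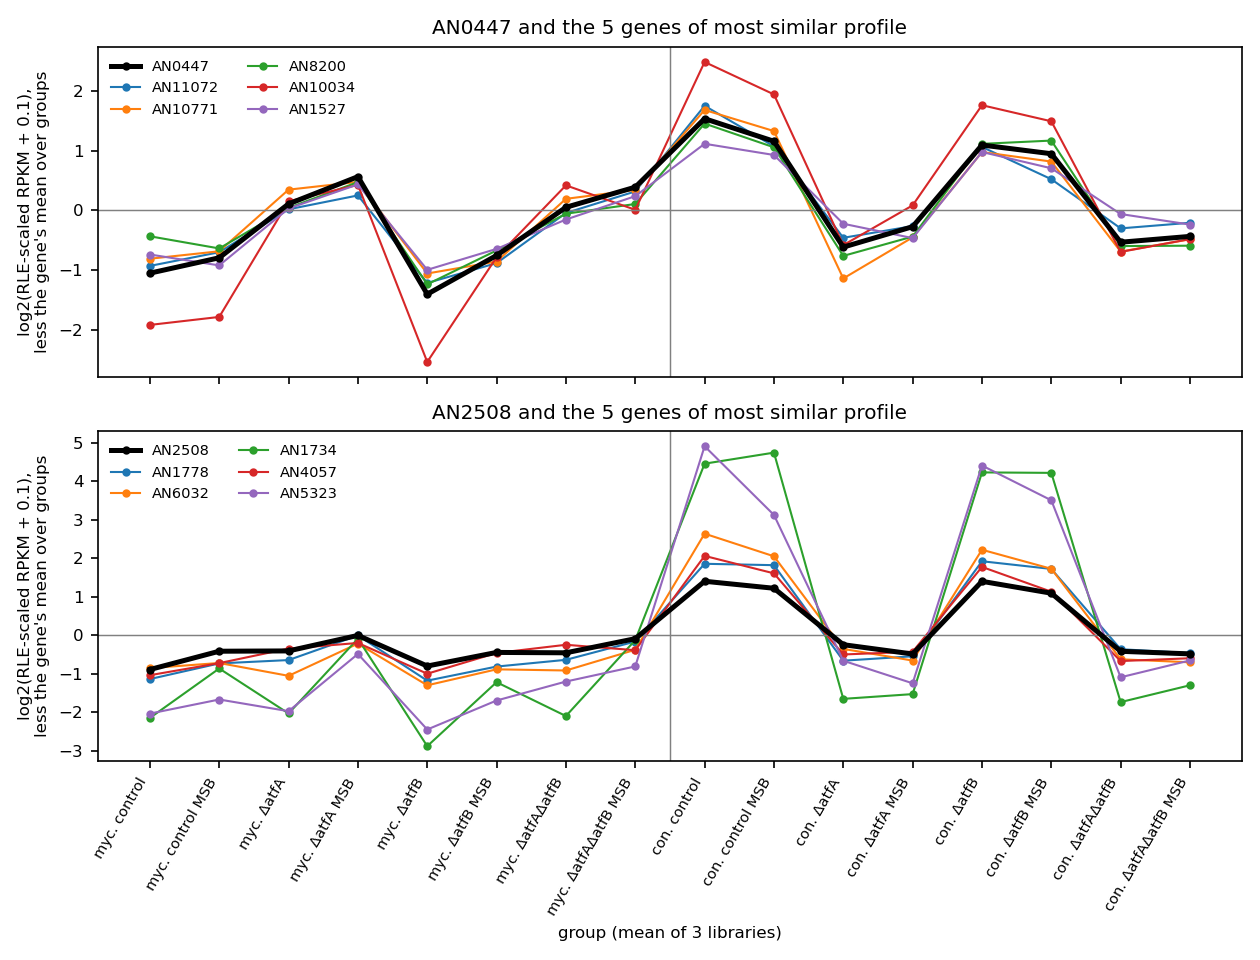
Group means of log2(RLE-scaled RPKM + 0.1), less each gene's mean over the 16 groups (vertical axis), for AN0447 (top, black) and AN2508 (bottom, black) with the 5 genes of highest Pearson r each, over 8 mycelial groups (left of the grey line) and 8 conidial groups (right). In the top panel the genes rise in both mycelial strains without *atfA* and fall in the conidia of these strains, and in the bottom panel the conidia of the control and of the libraries labelled Δ*atfB* stand above all other groups.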

How the data were processed

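RNA was extracted with Trisol, libraries were made with a TruSeq RNA kit, and reads were checked with FastQC and aligned with HISAT2 (2.1.0) by the authors, with FGSC A4 as the reference genome. The deposited table holds raw read counts per gene, and the RPKM values beside them were computed by the authors with edgeR. The counting tool, annotation and use of strand are not given in the sources used here. RPKM recomputed from the counts matched the deposited values.

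Counts were tested with edgeR 4.0.16 (R 4.3.3), by the quasi-likelihood F test on RLE-scaled counts, in genes with at least 0.5 RPKM in 3 libraries. The fit held the 24 libraries of a cell type, with batch as a term in conidia, or all 48 libraries for the difference between cell types. Calls needed a log2 fold change beyond 1 and a p, adjusted after Benjamini and Hochberg, under 0.05. The script was tested on simulated counts.

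AN0447, AN2508 and all gene lists were chosen with earlier results of these data known. Named genes were both members, the assembly list, called cluster enzymes and glutaredoxins, the 5 genes of most similar profile for each member, the deleted genes and the markers. Gene annotations were read from the study's supplementary gene lists, and 38 of 40 listed genes matched RefSeq by locus tag. Alternatives were TMM factors, no low-value filter, DESeq2 1.42.0, limma 3.58.1 on log2(RPKM + 0.1) and log2(RPKM + 1), any fold change, the first conidial batch alone, a replicate block and leaving out each replicate. A fit without scaling factors was added after seeing the data. Promoter and protein sequences were not used here.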

Additional observations from a re-analysis of the deposited data

Results flagged for a closer look

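The difference between the double mutant and the strain labelled Δ*atfB* was not the same in conidia as in mycelia, for both genes and in both treatments, by the difference term of the edgeR fit of all 48 libraries. For AN0447 the conidial minus mycelial log2 difference was −3.127 untreated and −2.519 on MSB. For AN2508 it was −2.185 untreated and −1.944 on MSB. Without scaling factors the values were −2.59 and −2.09 for AN0447 and −1.65 and −1.51 for AN2508. The conidial libraries labelled Δ*atfB* kept *atfB* reads (AN8643, 256.8 RPKM untreated and 192.2 on MSB, against 2.25 and 2.44 in the double mutant), so the conidial comparison also spanned a difference in *atfB* RNA. Each cell type was sequenced in batches of its own and, by the study, came from cultures of a different age. Cell type, batch and culture age thus cannot be separated.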

How the results depend on the processing

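The differences of the double mutant against the strain labelled Δ*atfB* in AN0447 kept their direction under every alternative run, and so did those of AN2508. On MSB, AN0447 fell short of the fold threshold in conidia in limma on log2(RPKM + 1), at −0.9995. Leaving out each replicate in turn gave AN0447 values of 1.44 to 1.52 in untreated and 0.968 to 1.26 in MSB-treated mycelia, where Δ*atfB* replicate 3 decided the call.

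With no scaling factor, limma on log2(RPKM + 0.1) and limma on log2(RPKM + 1), in this order, the double mutant against control value in conidia was −0.9351, −0.9311 and −0.9266 for AN0447 on MSB and −0.9872, −0.9839 and −0.9794 for AN2508 untreated, short of the fold threshold. The uncalled values of the conidial libraries labelled Δ*atfB*, which kept *atfB* reads, against the control on MSB turned positive, at 0.07042, 0.07319 and 0.07293 for AN0447 and 0.1545, 0.1538 and 0.1533 for AN2508, as did double mutant against Δ*atfA* for AN2508 on MSB, at 0.005357, 0.004273 and 0.004251. TMM turned AN2508 in MSB-treated mycelia, Δ*atfB* against control, to −0.01243. The Δ*atfA* against control values in conidia without factors were −1.31 and −0.77 for AN0447 and −0.78 and −1.05 for AN2508, untreated and on MSB. Calls in the assembly list became 1, 1 and 1 higher in untreated mycelia, 4, 4 and 4 lower in untreated conidia and 2, 2 and 1 lower on MSB. With no factor 276 of 9199 genes were called higher in untreated mycelia. In conidia 1112 of 10143 were called lower untreated and 927 on MSB. RPKM carry no scaling factor, and neither do these limma fits.

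With no fold threshold, further values were called in mycelia. For AN0447 these were the MSB effects of 0.4448, 0.6978 and 0.327 in Δ*atfA*, Δ*atfB* and the double mutant. Another was Δ*atfB* against control untreated (−0.3604), whose control libraries entered the choice. For AN2508 they were the MSB effects of 0.4622, 0.3855, 0.3813 and 0.3556 in the 4 strains, and double mutant against Δ*atfB* of 0.3617 and 0.336. Its double mutant against control values, 0.4457 and 0.339, stay descriptions, since the control libraries entered the choice. The MSB effects in the control and Δ*atfA* also rest on libraries that entered the choice. The assembly list then had 10 called higher in untreated mycelia, 6 higher and 2 lower on MSB, and 13 lower in conidia in each treatment.

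Leaving out single replicates turned the sign only of uncalled values. Untreated double mutant against Δ*atfA* ranged from −0.1222 to 0.0384 in mycelia and −0.06733 to 0.08062 in conidia for AN0447, and from −0.1248 to 0.07264 in mycelia for AN2508. Δ*atfB* against control ranged from −0.06493 to 0.2298 for AN0447 and −0.04085 to 0.04929 for AN2508 in MSB-treated mycelia, and from −0.1296 to 0.2119 for AN2508 in the untreated conidia so labelled. In conidia of the double mutant AN2508 ranged from −0.1479 to 0.01275 for MSB and from −0.05414 to 0.01472 against Δ*atfA* on MSB. The list had 1 to 2 genes called higher in untreated and 0 to 1 in MSB-treated mycelia.

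With the replicate number as a block, AN0447 gave 1.48, 1.11, −1.72 and −1.42 for the double mutant against Δ*atfB*, and no call changed. Residuals of same-numbered samples correlated by −0.441 to 0.398 in mycelia (median 0.0107) and −0.28 to 0.703 in conidia (median 0.135). Differently numbered samples had medians of −0.00927 and −0.0588. Batch was not removed from these residuals, so in conidia the values do not separate batch from pairing. The main fits did not take the numbers to pair samples. Where not stated otherwise, the cause of a change was not tested.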
